A study of Rattus norvegicus with 6 samples.

Results

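The airway secretory genes described here are 7 genes that mark club cells and other secretory cells of the conducting airways, and they were chosen by name from a list drawn up with the levels in these tumors already known. Of the 7, 6 were found among the 17557 rows (17030 gene symbols) of the deposited expression table, each on 1 row, namely Scgb1a1, Scgb3a1, Scgb3a2, Aldh1a1, Sec14l3 and Bpifa1. Muc5b, the main gel-forming mucin of the airway surface, had no row under that symbol and was not analysed here. Sftpc, the surfactant protein made by type 2 alveolar cells, was set beside them as a measure of alveolar transcripts. Since the levels of the 6 tumors entered the choice of genes, those levels are given as a description.

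Messenger RNA was measured in 1 library from the PAIII tumor of each of 6 Lobund-Wistar rats, with 3 rats in each group. PAIII is a transplantable, hormone-resistant rat prostate adenocarcinoma, and its cells were injected under the skin of the flank of rats of the strain it arose in, aged 2 months. Rats A1, A6 and A12 received digitoxin, a cardiac glycoside that inhibits the sodium pump, at 0.03 mg/kg daily from day 10, and rats B5, B9 and B14 received vehicle. Tumors were taken on day 40, and each library pooled 10 micropunches of 1 mm from viable regions. The digitoxin-treated rats were drawn from those with low serum IL-6 and CINC-1 and the vehicle rats from those with high levels, so treatment and serum marker level cannot be told apart. Values are FPKM, in which the reads of a gene are divided by its length and by the size of the library. Levels of different genes are set side by side on this scale, but they depend on the length used for each gene, which was not tested.

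Club cells are dome-shaped secretory cells of the bronchioles. They release secretoglobins, small disulfide-linked proteins that coat the airway lining, detoxify inhaled compounds with cytochrome P450 enzymes, and renew both themselves and ciliated cells after injury. Mucous cells and the glands of larger airways add mucins and BPI-fold proteins, while surfactant proteins come from the alveoli beyond the airways. None of these transcripts is used to define prostate epithelium.

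The tissue itself was first checked with marker lists. The epithelial keratins Krt8 and Krt19 were high in every tumor, with Krt8 from 398 FPKM in A6 to 2095 FPKM in A12. Of 10 prostate genes, 2 passed 1 FPKM on average, and both had a lower mean with digitoxin and no call, with a median log2 fold change of -0.17. Tmprss2, a protease that airway and other epithelia also make, measured 7.69 to 34.1 FPKM, and Acpp, the prostatic acid phosphatase, 2.33 to 6.28 FPKM. Hoxb13, a factor of the prostate lineage, reached at most 0.0937 FPKM, and Pbsn, which codes for probasin, was listed at 0 in all 6. By contrast, the 9 type 2 alveolar genes with a row summed to between 26227 and 78264 FPKM in A1, A6, B5 and B9, and to 53.1 FPKM in A12 and 62.1 FPKM in B14. A12 and B14, 1 tumor of each group, therefore stood apart from the other 4 in these alveolar genes. The labels describe all 6 as primary tumors. In bulk tissue, fewer cells of a type and less RNA per cell cannot be told apart.

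Scgb1a1, the club cell secretory protein also called CC10 or uteroglobin, was the most abundant of the airway mRNAs. The table places it on chromosome 1 from 232216739 to 232220289. It measured 54124 FPKM in A1, 129228 FPKM in A6 and 2.31 FPKM in A12 among digitoxin-treated tumors, against 20630 FPKM in B5, 22674 FPKM in B9 and 1.51 FPKM in B14 among vehicle tumors. It ranked 1 of all symbols in A1 and A6 and 3 in B5 and B9, but 9091 in A12 and 9722 in B14. In A6 it alone held 12.6% of the summed FPKM of the library, against 6.65% in A1, 3.16% in B9 and 2.46% in B5. Each group thus held a pair of very high values and 1 value under 3 FPKM, and the groups overlapped.

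The other secretoglobins followed at lower levels. Scgb3a2, a secretoglobin of the bronchiolar epithelium (chromosome 18, 37950631 to 37953554), measured 1098 FPKM in A1, 1543 FPKM in A6, 275 FPKM in B5 and 189 FPKM in B9, and was listed at 0 in A12 and B14. Scgb3a1, a secretoglobin of larger airways also known as HIN-1 (chromosome 10, 34905079 to 34906387), measured 145 FPKM in A1, 14.2 FPKM in A6, 7.62 FPKM in B5 and 3.67 FPKM in B9, and was also listed at 0 in A12 and B14. Scgb3a1 was thus 10.2-fold higher in A1 than in A6, while Scgb1a1 was 2.39-fold and Scgb3a2 1.41-fold higher in A6 than in A1.

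The remaining genes code for an enzyme, a lipid-binding protein and a secreted host-defense protein. Sec14l3, a Sec14-like protein of airway epithelium (chromosome 14, 84987891 to 84998642), measured 827 FPKM in A1, 1682 FPKM in A6, 436 FPKM in B5 and 465 FPKM in B9, and was listed at 0 in A12 and B14. Aldh1a1, which oxidizes retinal to retinoic acid and other aldehydes to acids (chromosome 1, 245521321 to 245562970), measured 145 FPKM in A1, 228 FPKM in A6, 68.8 FPKM in B5 and 61.3 FPKM in B9, with 0.196 FPKM in A12 and 0.222 FPKM in B14. Bpifa1, a BPI-fold protein of nasal and upper airway secretions also known as PLUNC (chromosome 3, 156002439 to 156008183), measured 10.9 FPKM in A1 and 0.0767 FPKM in B9 and was listed at 0 in the other 4. Bpifa1 is therefore a measurement of A1 alone at any level above 1 FPKM.

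**Figure D1:**
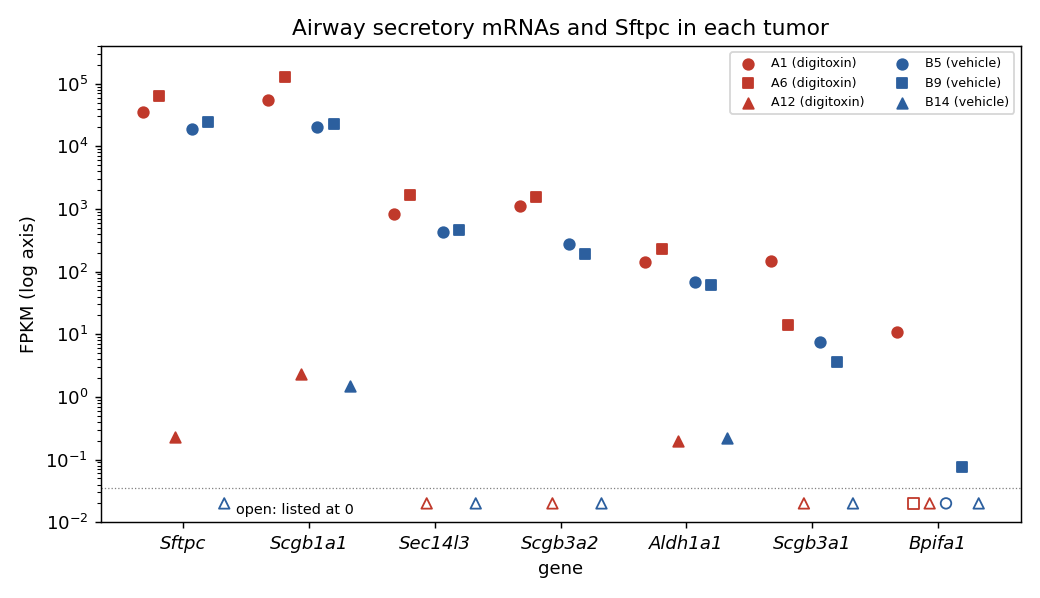
FPKM (log axis) of Sftpc and the 6 airway secretory genes, with 1 symbol per tumor, digitoxin-treated tumors in red and vehicle tumors in blue; open symbols under the dotted line are entries listed at 0. A12 and B14 (triangles) lie at 2.31 FPKM or below for every gene, and A6 is the highest tumor for all but Scgb3a1 and Bpifa1, where A1 is.

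The order of the levels was Scgb1a1, then Sec14l3 and Scgb3a2, then Aldh1a1, then Scgb3a1, then Bpifa1 by the mean over the 6 tumors. Scgb1a1 made up 96.1% to 97.4% of the summed FPKM of the 6 genes in A1, A6, B5 and B9. Sec14l3 and Scgb3a2, with means of 568 and 518 FPKM, did not differ beyond their spread, since Scgb3a2 was the higher one in A1 and Sec14l3 in A6, B5 and B9. Aldh1a1 and Scgb3a1 were level in A1 at 145 FPKM each, and Aldh1a1 was the higher in the other 5. Across the same 4 tumors, the highest value exceeded the lowest 3.72-fold for Aldh1a1, 3.86-fold for Sec14l3, 6.26-fold for Scgb1a1, 8.15-fold for Scgb3a2 and 39.6-fold for Scgb3a1, against 3.31-fold for Sftpc.

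The sequences just upstream of the starts of the 6 genes were read for motifs of lung transcription factors. The transcription factor NKX2-1, which directs lung epithelial identity and activates secretoglobin and surfactant genes, binds a core that was searched as CTTGAG on either strand in the 250 bases before each start, using RefSeq promoters of build GRCr8 and letters chosen with the promoters in view. All 6 genes had a promoter in that set, and none was held for Sftpc. The core occurred in 4 of the 6, those of Scgb1a1, Scgb3a1, Scgb3a2 and Bpifa1, and in 13.3% of all 27457 promoters. In Scgb1a1 it spanned bases 92 to 87 before the start, in Scgb3a2 bases 229 to 224, and in Scgb3a1 and Bpifa1 bases 231 to 226. The 3 promoters below are shown to compare the most abundant gene with both genes that were highest in A1, with the core in capitals. They lie on GRCr8 at chr1:215409687-215409936 (minus strand), chr10:34468916-34469165 (plus strand) and chr3:163087715-163087964 (plus strand).
Scgb1a1: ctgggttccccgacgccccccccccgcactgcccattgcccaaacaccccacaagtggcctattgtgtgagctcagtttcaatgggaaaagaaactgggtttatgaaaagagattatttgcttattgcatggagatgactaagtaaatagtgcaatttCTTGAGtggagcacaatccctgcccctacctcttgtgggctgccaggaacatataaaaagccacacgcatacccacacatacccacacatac
Scgb3a1: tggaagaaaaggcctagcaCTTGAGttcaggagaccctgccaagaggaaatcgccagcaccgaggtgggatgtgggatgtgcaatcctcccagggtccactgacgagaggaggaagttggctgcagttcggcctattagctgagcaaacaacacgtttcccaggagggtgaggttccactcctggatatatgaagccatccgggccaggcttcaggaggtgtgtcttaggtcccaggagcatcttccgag
Bpifa1: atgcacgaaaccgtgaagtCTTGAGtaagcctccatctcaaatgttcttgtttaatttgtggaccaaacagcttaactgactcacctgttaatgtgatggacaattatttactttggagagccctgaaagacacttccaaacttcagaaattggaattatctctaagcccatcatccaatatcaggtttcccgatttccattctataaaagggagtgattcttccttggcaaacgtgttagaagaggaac

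A forkhead core, searched as TNTTTAC on both strands, occurred in 3 of the 6 promoters (Scgb1a1, Aldh1a1 and Bpifa1) and in 11.5% of all. In Scgb1a1 it spanned bases 108 to 102, just upstream of the NKX2-1 core. A C/EBP core, searched as TTGCNNAA on both strands, occurred in Scgb1a1 alone of the 6 and in 9.2% of all, and the TATA box, searched as TATAAA on the strand of the gene, in Scgb1a1 and Bpifa1 and in 8.38% of all. These letters do not overlap with each other in the promoter of Scgb1a1. A match is a description of the letters and was not tested as a binding site.

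Of 18 airway and lung regulators, 16 were tested and none was called, with 9 higher and 7 lower and a median log2 fold change of 0.0835. Nkx2-1, picked with Foxa2 after their values were seen, was high in the same 4 tumors as the airway genes. It measured 139 FPKM in A1, 213 FPKM in A6, 62.9 FPKM in B5 and 117 FPKM in B9, and was listed at 0 in A12 and B14. Foxa2, a forkhead factor of lung endoderm, measured 39.7 FPKM in A1, 53.1 FPKM in A6, 23.9 FPKM in B5 and 26.0 FPKM in B9, with 7.40 FPKM in A12 and 5.07 FPKM in B14. Elf3, an epithelial factor, went the other way, with 231 FPKM in A12 and 178 FPKM in B14 against 46.5 FPKM in A6 and 67.8 FPKM in A1.

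To compare the conducting airway with the alveoli within a tumor, each level was divided by that of Sftpc in the same tumor. Sftpc measured 35405 FPKM in A1, 63514 FPKM in A6, 19188 FPKM in B5 and 24105 FPKM in B9. It was at 0.229 FPKM in A12 and 0 in B14, so ratios were formed in the 4 tumors with at least 1 FPKM. Scgb1a1 stood at 1.53 times Sftpc in A1, 2.03 times in A6, 1.08 times in B5 and 0.941 times in B9. Both digitoxin-treated tumors were thus above both vehicle tumors, and the ratio spanned 2.16-fold. With 2 tumors left in each group and the genes chosen on these levels, no test of this order was made. Against the summed type 2 alveolar list the same ratios were 1.12, 1.65, 0.787 and 0.666. Against Sftpb, another surfactant protein, they were 15.8, 26.1, 19.98 and 10.04, so A1 then fell below B5 and the groups overlapped.

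The other airway genes differed in how closely they tracked Sftpc. Sec14l3 was the steadiest, at 2.33%, 2.65%, 2.27% and 1.93% of Sftpc in A1, A6, B5 and B9, a 1.37-fold span. Aldh1a1 spanned 1.61-fold, from 0.254% in B9 to 0.408% in A1. Scgb3a2 spanned 3.95-fold, at 3.10% in A1 and 2.43% in A6 against 1.43% in B5 and 0.785% in B9. Scgb3a1 spanned 26.96-fold, at 0.411% in A1, 0.0224% in A6, 0.0397% in B5 and 0.0152% in B9.

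**Figure D2:**
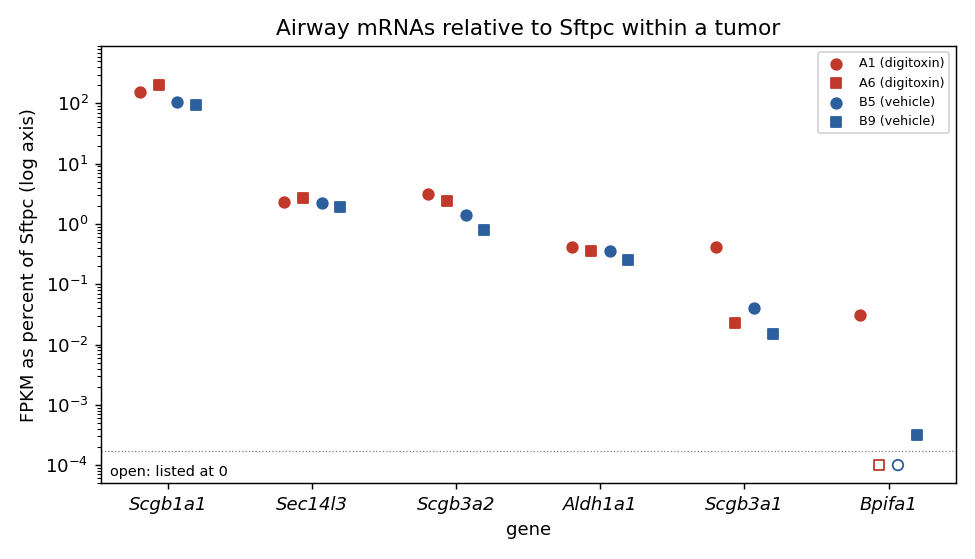
FPKM of each airway gene as a percent of Sftpc in the same tumor (log axis), for the 4 tumors with Sftpc of at least 1 FPKM; red symbols are digitoxin-treated and blue are vehicle tumors, and open symbols are entries listed at 0. Sec14l3 lies between 1.93% and 2.65% in all 4, while Scgb3a1 and Bpifa1 are set apart by A1.

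A1 held more of some airway transcripts relative to Scgb1a1 than the other tumors did, but not of all. Relative to Scgb1a1, Scgb3a1 stood at 0.269% in A1, 7.27-fold above the next highest tumor, whereas Scgb3a2 stood at 2.03%, only 1.52-fold above the next. Among genes picked after their values were seen, the cytochromes P450 Cyp2f4 and Cyp2a3, which oxidize xenobiotics in airway and nasal epithelium, and Agr2, a disulfide isomerase needed for mucin production, were also high relative to Scgb1a1 in A1, by 4.59-fold, 13.0-fold and 4.296-fold over the next tumor. Cyp2a3 measured 166 FPKM in A1, 28.6 FPKM in A6, 4.85 FPKM in B5 and 1.32 FPKM in B9. Agr2 measured 20.8 FPKM in A1, 11.5 FPKM in A6, 0.733 FPKM in B5 and 1.75 FPKM in B9. Both were listed at 0 in A12 and B14. Several airway genes lay in A1 between A6 and the vehicle tumors. Relative to Scgb1a1, Retnla stood at 1.19% in A1, 0.724% in A6, 2.68% in B5 and 2.14% in B9. Sec14l3 stood at 1.53% in A1, 1.30% in A6, 2.11% in B5 and 2.05% in B9, and Aldh1a1 at 0.267% in A1, 0.176% in A6, 0.334% in B5 and 0.270% in B9. Bpifb1 and Bpifa5 were likewise higher in A1 than in A6 and lower than in B5 and B9 on this scale. These are values of single libraries with no replicate of the tumor.

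The comparison of digitoxin-treated with vehicle tumors asked whether any airway gene differed with treatment. All 6 genes had a higher mean with digitoxin, and none of them passed an adjusted p under 0.05. Of the 10749 rows tested, 35.1% had a higher mean with digitoxin. With limma's moderated test on log2(FPKM + 1) for rows averaging 1 FPKM or more, 0 rows passed at an adjusted p under 0.05, or 0%, and 36 rows, none of them an airway gene, had an unadjusted p under 0.05. The adjusted p-values of the 6 genes from limma ran from 0.926 to 0.966. The log2 fold change was 1.43 for Scgb1a1 with a standard error of 5.24, 1.67 for Scgb3a2 (3.47), 1.93 for Scgb3a1 (1.84), 0.92 for Sec14l3 (3.60), 0.97 for Aldh1a1 (2.48) and 1.16 for Bpifa1 (1.00). Sftpc had 0.86 (5.59). The median of the 6 was 1.30, beside -0.16 for all rows tested. In this fit, which left out the replicate number, the differences were within the spread between tumors, and the groups overlapped for each of the 6. Of all rows tested, 0.902% were higher with digitoxin without overlap.

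With the replicate number as a block, which compares A1 with B5, A6 with B9 and A12 with B14, the fold changes were the same and the standard errors smaller. No source states what that number marks, so these pairs are an assumption of the fit. Scgb1a1 was higher in the digitoxin-treated tumor of all 3 pairs, the only one of the 6 genes that was, and its standard error fell to 0.47. It stood out only by the low values of A12 (2.31 FPKM) and B14 (1.51 FPKM). Scgb3a1, Scgb3a2, Sec14l3 and Aldh1a1 were also higher with digitoxin in the other pairs. In A12 and B14 the first 3 were listed at 0, and Aldh1a1 was at 0.196 and 0.222 FPKM. In that limma fit 5 of the 6 genes, all but Bpifa1, had an unadjusted p under 0.05 (0.0185 to 0.0470), as did Sftpc (0.0382) and 4.15% of all rows. The adjusted p-values of the 6 were 0.638 to 0.639, and no row was called. Nothing is read from that count, because the genes were chosen on these levels.

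The direction rested on single tumors for all of the 6 but Scgb3a1, which stayed higher with digitoxin with any 1 tumor left out, from 0.19 without A1 to 3.78 without A12. Without A1 the log2 fold change of Scgb1a1 became -0.69, without A6 it became -1.32 and without B14 -2.92. In each of those 3 fits, 4 of the 6 genes had a lower mean with digitoxin. A12 and B14 were then left out together, which left 2 tumors in each group. In that fit the log2 fold changes were 1.95 for Scgb1a1 (standard error 1.35), 2.51 for Scgb3a2 (0.34), 2.89 for Scgb3a1 (1.01), 1.47 for Aldh1a1 (0.30), 1.39 for Sec14l3 (0.41) and 1.74 for Bpifa1 (1.08), with adjusted p-values from limma of 0.392 to 0.462. Thus 0 of the 6 were called, where 2 of 10749 rows, or 0.0186%, were. In these 4 tumors, 5 of the 6 genes were higher in both digitoxin-treated tumors than in both vehicle tumors, and 17.2% of all rows were. Since the genes were chosen on the levels of these tumors, nothing is read from that count.

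**Figure D3:**
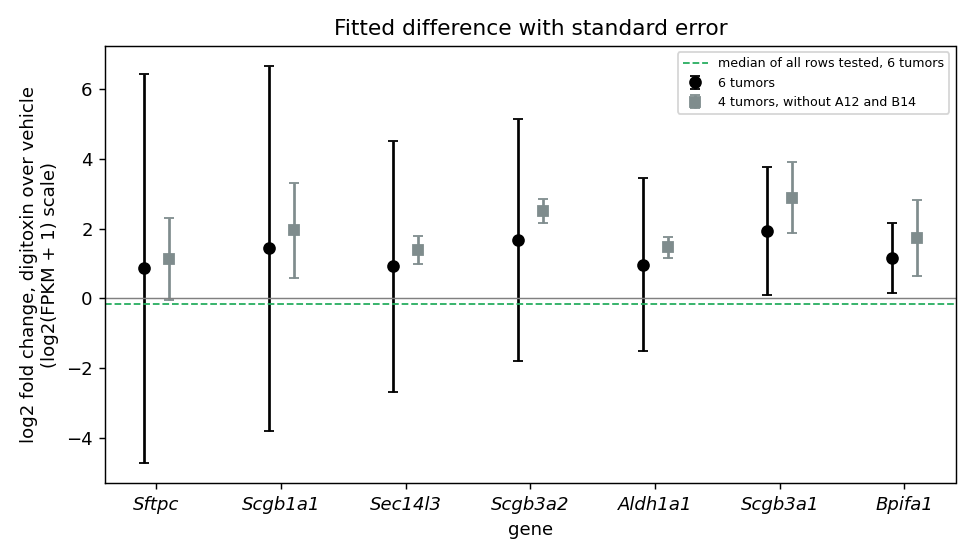
Log2 fold change of digitoxin-treated over vehicle tumors on the log2(FPKM + 1) scale, with the standard error as bars, from all 6 tumors (black) and from the 4 tumors without A12 and B14 (grey); the dashed line is the median of all rows tested, -0.16. The bars, each 1 standard error, of Scgb1a1, Scgb3a2, Sec14l3, Aldh1a1 and Sftpc cross 0 with all 6 tumors. Those of Scgb3a1 and Bpifa1 do not, but neither gene was called (adjusted p from limma of 0.926 for both).

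The further genes of the airway were read from lists of markers. Of 21 other club cell genes, 17 were tested, none was called, 13 had a higher and 4 a lower mean with digitoxin, and their median log2 fold change was 0.53. In A12 and B14, 10 of the 17 were under 1 FPKM. Retnla, a secreted resistin-like protein, measured 646 FPKM in A1, 936 FPKM in A6, 552 FPKM in B5 and 485 FPKM in B9 and was listed at 0 in A12 and B14. Cyp4b1, a cytochrome P450 of the bronchiolar epithelium, measured 204 FPKM in A1, 576 FPKM in A6, 86.5 FPKM in B5 and 227 FPKM in B9, with 0.706 FPKM in A12 and 1.19 FPKM in B14. Pigr, which carries antibodies across the epithelium, measured from 101 to 296 FPKM in A1, A6, B5 and B9, 0 in A12 and 0.0217 FPKM in B14. Gabrp, a GABA receptor subunit, did not share this pattern, with 0.114 FPKM in A6 and 81.0 FPKM in A12.

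Of 21 goblet and mucous cell genes, 17 had a row, 10 were tested and none was called, with 9 higher and 1 lower and a median of 0.55. Wfdc2, a secreted protease inhibitor, measured 943 FPKM in A1, 2002 FPKM in A6, 502 FPKM in B5 and 452 FPKM in B9, and also 101 FPKM in A12 and 56.1 FPKM in B14. Slpi, another airway antiprotease, was spread more evenly, from 70.1 FPKM in A12 to 407 FPKM in A6, with 176 FPKM in B14. In A12 and B14, 6 of the 10 tested genes were under 1 FPKM, among them Pigr, which the club cell list also holds, whereas Wfdc2 and Slpi were well above it.

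Ciliated cells share the conducting airway with club cells. Of 24 ciliated cell genes, 16 had a row, 14 were tested and none was called, with 11 higher and 3 lower and a median of 1.22. In A12 and B14, 8 of the 14 were under 1 FPKM. Tppp3, a tubulin-binding protein, measured 484 FPKM in A1, 999.5 FPKM in A6, 188 FPKM in B5 and 241 FPKM in B9, with 7.32 FPKM in A12 and 5.49 FPKM in B14. Dynlrb2, a dynein light chain, measured 89.0 FPKM in A1, 203 FPKM in A6, 20.1 FPKM in B5 and 15.0 FPKM in B9, and less than 1 FPKM in A12 and B14. Foxj1, the regulator of motile cilia, which was picked after its values were seen, measured 19.2 FPKM in A1 and 24.4 FPKM in A6 against 2.21 FPKM in B5 and 2.68 FPKM in B9. Tubb4b, a tubulin used by many cells, was at 205 to 393 FPKM in all 6 tumors.

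**Figure D4:**
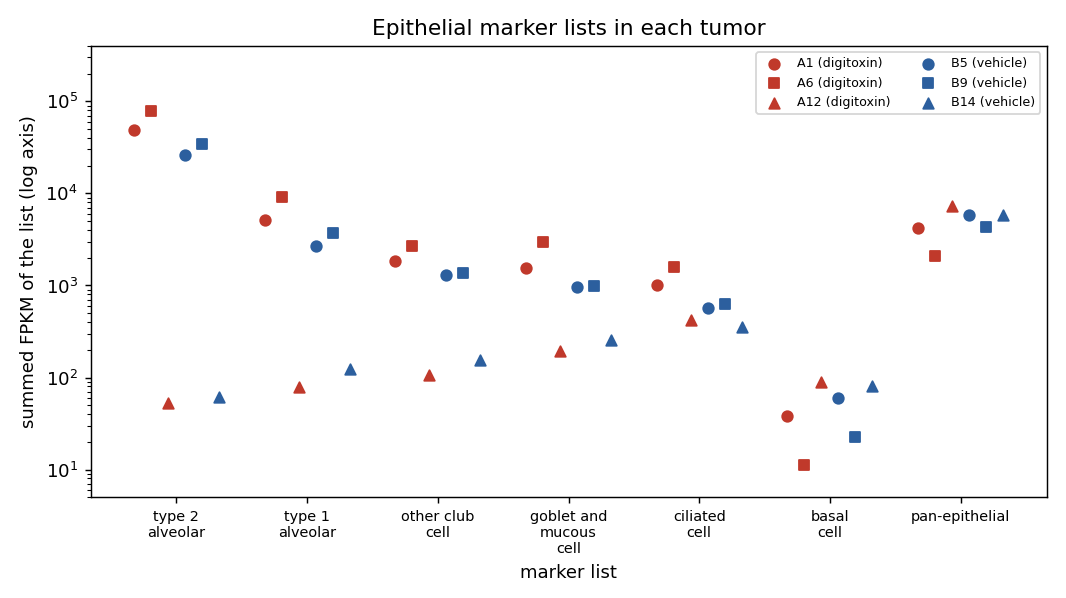
Summed FPKM (log axis) of 7 epithelial marker lists in each tumor, digitoxin-treated tumors in red and vehicle tumors in blue. The alveolar, club, goblet and ciliated sums are lowest in A12 and B14 (triangles), whereas the pan-epithelial sum is highest in A12 at 7208 FPKM and lowest in A6 at 2098 FPKM.

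Alveolar, endothelial and epithelial markers were read beside these. The 8 type 1 alveolar genes, all tested and none called, summed to 5177 FPKM in A1, 9205 FPKM in A6, 2652 FPKM in B5 and 3696 FPKM in B9, against 78.5 FPKM in A12 and 123 FPKM in B14, with 7 higher and 1 lower and a median of 0.42. Of the 9 type 2 alveolar genes, none was called, 8 were higher and 1 lower, with a median of 0.38. The 9 lung capillary endothelial genes summed to 1310 FPKM in A1, 2632 FPKM in A6, 553 FPKM in B5 and 1031 FPKM in B9, against 112 FPKM in A12 and 189 FPKM in B14, with 5 higher and 4 lower. The 14 pan-epithelial genes with a row had 12 lower and 2 higher means with digitoxin, a median of -0.41 and no call, and their sum was lowest in A6, the tumor with the most Scgb1a1, and highest in A12. The order was not a full mirror of the airway genes, since the sum was 5868 FPKM in B5 and 5792 FPKM in B14. Of 8 basal cell genes, 5 were tested and none was called, with 2 higher and 3 lower and a median of -0.79. Their most abundant members were the keratins Krt17, at 1.20 FPKM in A6 to 41.3 FPKM in A12, and Krt14, at 4.96 FPKM in B9 to 27.4 FPKM in A12, and Trim29, at 0.454 FPKM in A6 to 18.3 FPKM in B14. Krt5 and Tp63, which define basal cells, reached at most 0.939 and 1.75 FPKM. The alveolar macrophage genes, 3 higher and 4 lower, summed to 1530 FPKM in A1, 1240 FPKM in A6, 2520 FPKM in B5 and 1411 FPKM in B9. Their sum was 2171 FPKM in A12 and 1777 FPKM in B14. Fabp4, the most abundant, was highest in A12 at 2036 FPKM, whereas Chi3l1 was lowest there at 15.5 FPKM. The alveolar and endothelial sums thus moved with the airway genes, and the macrophage sum did not. The part of these cells in the differences between tumors was not tested.

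Within the gene families, only some relatives were present. Of 6 other secretoglobins, 4 had a row, and Scgb1c1 alone passed 1 FPKM on average, with 1.67 FPKM in A1, 6.86 FPKM in A6 and at most 1.02 FPKM in the other 4. Scgb1d2 was listed at 0 in all 6 tumors, and Scgb2a1 and Scgb2a2 stayed under 1 FPKM. Of 13 BPI-fold relatives, 11 had a row and 4 were tested. Bpifa5, a relative of Bpifa1 that was picked after its values were seen, measured 14.4 FPKM in A1, 19.9 FPKM in A6, 9.54 FPKM in B5 and 7.51 FPKM in B9 and was listed at 0 in A12 and B14. In A6, B5 and B9 it was thus present where Bpifa1 was at or near 0. Bpifb1, a BPI-fold protein of airway mucous cells, measured 32.0 FPKM in A1, 14.3 FPKM in A6, 21.1 FPKM in B5 and 14.8 FPKM in B9, and 0 in A12 and B14. Paralogs of these families can share reads, so levels near 0 are uncertain.

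Of 11 mucins, 3 had a row. Muc1, a membrane mucin of many epithelia, measured 181 FPKM in A1, 222 FPKM in A6, 69.1 FPKM in B5 and 127 FPKM in B9, and 0.802 FPKM in A12 and 0.517 FPKM in B14. Muc15 ran the other way, at 2.68 FPKM in A12, 2.26 FPKM in B14 and 0 in A6. Of 9 relatives of Sec14l3, 5 were tested and none was called, with 3 higher and 2 lower and a median of 0.11. Sec14l1, the most abundant, was at 23.3 to 43.7 FPKM in all 6 tumors, and Ttpal at 7.17 to 13.4 FPKM. Sec14l2 measured 18.2 FPKM in A1, 15.0 FPKM in A6, 8.80 FPKM in B5 and 9.90 FPKM in B9, above the 3.88 FPKM in A12 and 2.95 FPKM in B14. Sec14l4, picked after its values were seen, was at 2.34 to 7.73 FPKM in those 4 tumors, 0 in A12 and 0.0294 FPKM in B14.

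Aldh1a1 is not particular to airway cells, and its relatives and the retinoid genes were read with it. Of 18 such genes, 16 were tested and none was called, with 9 higher and 7 lower and a median of 0.12. Aldh1a3, which makes retinoic acid in other epithelia, was the mirror of Aldh1a1, with 170.4 FPKM in A12 and 139.8 FPKM in B14, 99.9 FPKM in B5, 103 FPKM in B9, 31.4 FPKM in A1 and 0.491 FPKM in A6. Aldh1a2, the enzyme of mesothelium and stroma, measured 27.04 FPKM in A1, 13.0 FPKM in A6, 19.6 FPKM in B5 and 17.4 FPKM in B9, and less than 1 FPKM in A12 and B14. Aldh2, a mitochondrial dehydrogenase, was at 79.5 to 242 FPKM over the 6 tumors.

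Finally, the rows with a pattern most like that of Scgb1a1 were ranked by the root mean square difference between centred log2(FPKM + 1) profiles over the 6 tumors. This measure favours genes with an equally wide range. The closest of 10748 rows was Sftpc, at 0.58, followed by Defb4, a beta-defensin, at 0.91, and by the surfactant genes Sftpa1 at 0.97 and Sftpb at 1.28. S100g, a calcium-binding protein, Ager, a receptor of type 1 alveolar cells, and Sftpd came next, at 1.81, 1.85 and 1.90, and Sec14l3 was in place 8 at 2.06. Defb4 measured 6651 FPKM in A1, 12565 FPKM in A6, 3556 FPKM in B5 and 1447 FPKM in B9, and was listed at 0 in A12 and B14. Of the other airway genes, Scgb3a2 was in place 10, Aldh1a1 in place 30, Scgb3a1 in place 162 and Bpifa1 in place 2280. Over 4 tumors, without A12 and B14, the pair Sec14l3 and Sftpc differed by 0.16, Scgb1a1 and Sec14l3 by 0.29, Scgb1a1 and Sftpc by 0.44 and Scgb3a1 and Bpifa1 by 0.69.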

How the data were processed

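Messenger RNA was sequenced from 6 rat tumors as single reads (TruSeq RNA Sample Prep Kit v2, Genome Analyzer IIx). The authors deposited FPKM per transcript row and tumor, made with Bowtie 2, TopHat 2 and Cufflinks 2. The submitters' processing notes name hg19, a human build, while the rows are rat genes; the rat build is not given in the sources used here, so positions are printed as the table gives them. All value columns were matched to a sample. The Cuffdiff analysis of the study needs reads and was not repeated.

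Each symbol was read from its highest-mean row. Digitoxin-treated and vehicle tumors were tested against each other in limma 3.58.1 (R 4.3.3) (lmFit, eBayes with a trend, two-sided, Benjamini-Hochberg adjustment over all 10749 rows averaging 1 FPKM or more) on log2(FPKM + 1), a scale that understates changes of low mRNAs. This fit was checked on simulated data, where for the same comparison 143 of 200 rows changed by 4 on the log2 scale and 12 unchanged rows were called. The changed rows were picked at random and the noise was drawn separately for each row, without the split of A12 and B14 that many genes share. The check therefore does not say how often such a change would be called in the airway genes, where Scgb1a1 had a standard error of 5.24. Python 3.11.15, numpy 2.4.6, pandas 2.3.3 and matplotlib 3.10.9 were used. Named were all airway genes and Sftpc, the 3 most abundant tested genes of each list and the 8 rows most like Scgb1a1; any other gene was picked with its values in view. Some genes that this rule or the marker lists hold are not reported here. The genes, lists and tests were chosen with earlier results of these data known. Lists of keratinocyte, prostate, alveolar macrophage and secretory granule genes were also read, and none of their 1, 2, 7 and 8 tested genes was called.

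Reads were not analysed here. The ratios between tumors of values under 0.5 FPKM gave no depth, since the most frequent ratio to B9 held 1.18% to 3.34% of the rows, so no counting error is given and an entry of 0 is only listed at 0. No source states whether FPKM were scaled between tumors, and the FPKM of short mRNAs such as secretoglobins depend on the length used, which was not tested. No source states what the replicate numbers of the titles mark, so the main fit left them out and the replicate block was only an alternative. Same-numbered tumors deviated together from their group means (r = 0.426, 0.606 and 0.869 across rows). However, A1 was closer to B9 (0.644) than to B5, and A6 to B5 (0.612) about as close as to B9. These values therefore do not establish that same-numbered tumors are pairs. Tried as alternatives were the replicate block, median-of-ratios scaling, a pseudocount of 0.1, a fit to unfiltered rows, no trend, each tumor left out, A12 and B14 left out together, ratios of group means, and other terms of the airway to alveolar ratio.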

Additional observations from a re-analysis of the deposited data

How the results depend on the processing

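With n = 3 per group and both very high and near-zero values within each, the directions of 5 airway genes and Sftpc depended on which tumor was left out. Leaving out 1 tumor moved the log2 fold change of Scgb1a1 between -2.92 and 6.31, Scgb3a2 between -0.94 and 5.12, Scgb3a1, which did not reverse, between 0.19 and 3.78, Aldh1a1 between -0.95 and 3.39, Sec14l3 between -2.01 and 4.33, Bpifa1 between -0.0356 and 1.75 and Sftpc between -3.94 and 5.94; the count of airway genes lower with digitoxin ran from 0 to 4, and the count of rows called from 0 to 2, with 2 when B14 was left out. Leaving out A12 and B14 together gave 2 called rows, none of them an airway gene. Scgb1a1 over Sftpb was 15.8 in A1, 26.1 in A6, 19.98 in B5 and 10.04 in B9, a different denominator and scale. Of the 91 alternative values for the 7 genes, 76 kept their direction and 15 reversed, all of these with 1 tumor left out, and no gene was called in any fit; the ratios of group means have no test. With the replicate block 0 rows and 0 airway genes were called, and 446 rows, among them 5 of the 6 airway genes and Sftpc, had an unadjusted p under 0.05, against 36 rows and none of these genes without it. Median-of-ratios scaling moved the median of all rows from -0.16 to 0.0209 and reversed none of the 7. The log2 ratio of group mean FPKM, which the highest tumors dominate, was 2.08 for Scgb1a1, 2.51 for Scgb3a2, 3.82 for Scgb3a1, 1.52 for Aldh1a1, 1.48 for Sec14l3, 7.16 for Bpifa1 and 1.19 for Sftpc, and a pseudocount of 0.1 gave 1.99 for Bpifa1 and 1.33 for Sftpc. With that pseudocount the 8 rows most like Scgb1a1 shared 6 with those named. No airway gene was on several rows, so summing rows changed nothing. The depth is unknown, and low FPKM have no known precision.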
